A study of Drosophila melanogaster with 6 samples.

Results

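Some peaks of the chromatin protein ROW lie in tight runs, that is, in rows of at least 3 peaks whose consecutive summits are at most 2000 bp apart. The ROW list was searched for such runs on chromosome arms 2L, 3L and 3R. It holds 8788 peaks, of which 5115 lie on these arms. Of these, 340 (6.65%) belonged to 109 tight runs. The other 4775 were outside: 3643 stood alone and 1132 formed 566 runs of 2. The members were chosen by the positions of ROW summits, so spacing, run length and everything else read from the ROW list describes them and tests nothing.

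ROW is a zinc-finger protein with AT-hooks, short motifs that contact AT-rich DNA, and it is part of a complex with the heterochromatin protein HP1c, which in flies is found largely at active genes. BEAF-32 is an insulator protein, one of the proteins that mark borders between chromatin domains, and it is known to sit close to the promoters of many housekeeping genes. Both maps come from chromatin immunoprecipitation with sequencing of S2 cells, a Drosophila melanogaster line of embryonic origin with properties of blood cells. The ROW antibody was used on 3 samples and the BEAF-32 antibody on another 3, with no treatment named in the labels beyond the antibody, and all titles share the tag con, which was not interpreted. The sample groups follow the titles, since a running number is attached to BEAF-32 in the antibody labels. Each antibody has 1 peak list for its 3 samples, so no value below has a replicate error, and the depth is unknown. Intervals cover counting error only, and neighbouring peaks share their surroundings, so these intervals can be too narrow. Coordinates are on dm3 and counted from 1.

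Runs were short. Of the 109 runs, 98 held 3 peaks, 9 held 4 and 2 held 5. From the first to the last summit a run spanned a median of 2632 bp (range 1562 to 5530). The median spacing of the 231 consecutive summit pairs in runs was 1255 bp (interquartile range 992 to 1613), against a median of 6521.5 bp over all consecutive ROW summits on the 3 arms. Spacing differed little with run length, with medians of 1364 bp in runs of 2, 1242 bp in runs of 3, 1382 bp in runs of 4 and 1278 bp in runs of 5. Between the edges of neighbouring peaks in a run lay a median of 663 bp without a called peak, and at least 284 bp. No ROW peaks on these arms were listed closer than 279 bp edge to edge. The limit of 2000 bp fell in no natural gap. The widest spacing that still joined peaks was 1997 bp and the narrowest that did not was 2002 bp. There were 51 spacings above 1900 and up to 2000 bp and 56 above 2000 and up to 2100 bp.

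All 3 arms carried runs in similar number. There were 35 runs with 105 peaks on 2L, 41 runs with 131 peaks on 3L and 33 runs with 104 peaks on 3R. That is 6.79%, 7.64% and 5.61% of the ROW peaks of the arms, or 1.52, 1.67 and 1.18 runs per Mb between the first and the last ROW summit.

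Peaks in runs were weaker and narrower than ROW peaks outside. Fold enrichment, which the authors' list gives as signal at the summit over that of the surroundings, had a median of 3.10 in runs (interquartile range 2.31 to 4.90) and 4.24 outside (2.68 to 8.41). A fold enrichment of at least 4 was reached by 31.8% of run peaks and 52.9% of outside peaks. The 3 arms held 921 ROW peaks of at least 10-fold, and 12 of them were in runs, where 6.65% of all ROW peaks on these arms were in runs. The strongest run peak, at 16.52-fold, ranked 220 among all ROW peaks on these arms. The median width was 483.5 bp in runs and 583 bp outside. The median fold enrichment was 2.45 in runs of 5, 2.99 in runs of 4 and 3.11 in runs of 3, against 3.78 in runs of 2 and 4.46 at lone peaks. The runs of 5 contribute only 10 peaks. The −log10 q did not follow this order, with medians of 17.2 in runs of 5, 40.4 in runs of 4 and 26.1 in runs of 3, against 37.7 in runs of 2 and 45.6 at lone peaks. A −log10 q under 10 was found at 25.3% of run peaks and 21.0% of outside peaks, with 19.3% in runs of 2 and 21.5% at lone peaks.

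How far the strongest peak of a run stood above its neighbours varied between runs. The strongest peaks of the 109 runs had a median fold enrichment of 5.47 and a median width of 594 bp. The 231 weaker peaks had medians of 2.65 and 425 bp. By rank, the second peaks had a median of 3.12-fold, the third of 2.37-fold, and the 13 peaks below them one of 2.13-fold. The ratio of the strongest peak to the median of its weaker neighbours had a median of 1.80 and ran from 1.01 to 8.48. It was at least 2 in 44 runs and at least 4 in 8 runs and under 1.5 in 37 runs. The direction of this ratio, and part of its size, follow from picking the strongest peak. The strongest peaks of runs were in turn a little weaker than the stronger peaks of runs of 2, whose median was 6.09-fold. The weaker run peaks were close to the weaker peaks of runs of 2, at 2.78-fold. No weaker run peak reached 8-fold, and 28 strongest peaks did. In 36 runs no peak reached 4-fold, in 43 runs a single peak did, in 25 runs 2 peaks did and in 5 runs 3 peaks did. In runs of 3, the strongest peak was the middle one in 29 and an end peak in 69, where each run has 1 middle and 2 end peaks.

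**Figure D1:**
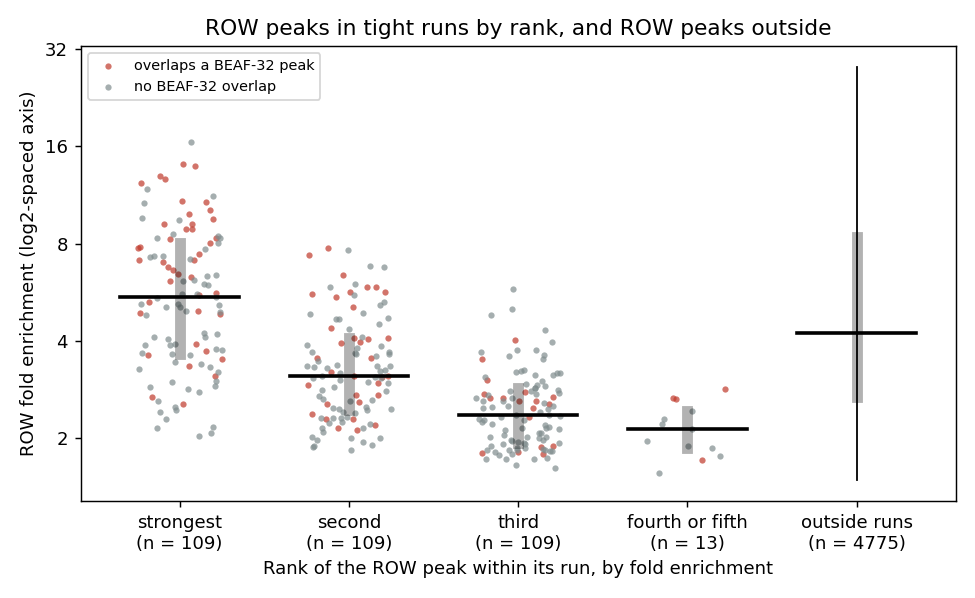
Fold enrichment of each ROW peak in a tight run on a log2-spaced axis, by its rank within the run, with peaks that overlap a BEAF-32 peak in red and the others in grey; black bars are medians, thick grey bars interquartile ranges, and at the right the 4775 peaks outside runs are drawn with their full range as a thin line. Medians step down over the ranks, 5.47, 3.12, 2.37 and 2.13, and the median outside runs is 4.24.

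ROW peaks in runs were less often BEAF-32 sites than other ROW peaks. BEAF-32 peaks were overlapped by 98 of 340 run peaks, which is 28.8% (95% Wilson interval 24.3 to 33.9), against 2169 of 4775 outside peaks, 45.4% (44.0 to 46.8). Among all 5115 ROW peaks of 2L, 3L and 3R it was 44.3%. The difference between run and outside peaks was -16.6 percentage points (95% Newcombe interval -21.4 to -11.4). It had the same sign on each arm, at -14.1 points on 2L (-22.3 to -4.39), -17.1 points on 3L (-24.4 to -8.61) and -17.6 points on 3R (-26.0 to -7.90). Runs of 2 fell between, with 38.7% (35.9 to 41.6), and lone peaks were highest, with 47.5% (45.9 to 49.1). Against runs of 2, run peaks differed by -9.87 points (-15.3 to -4.11), with no account taken of ROW strength. A BEAF-32 summit lay no more than 100 bp from the ROW summit at 15.6% of run peaks and 26.5% of outside peaks, against 25.8% of all 5115.

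The difference between run and outside peaks was smaller among ROW peaks of like strength. In the weakest quartile of ROW fold enrichment (up to 2.63) 20 of 124 run peaks, 16.1%, overlapped BEAF-32, against 22.1% outside. In the second quartile (up to 4.12) the shares were 28.7% of 115 run peaks and 38.9% outside, and in the third (up to 8.09) 38.7% of 75 run peaks and 50.9% outside. In the strongest quartile 16 of 26 run peaks, 61.5%, and 67.9% of outside peaks overlapped. The run peaks were lower in all 4 quartiles. From the weakest to the strongest quartile, the differences were -5.97 points (-11.9 to 1.85), -10.2 points (-18.2 to -0.951), -12.2 points (-22.8 to -0.547) and -6.38 points (-25.5 to 9.87). These intervals count each peak as independent, which neighbouring peaks are not. A bound that falls just short of 0 therefore decides nothing here. Averaged over the quartiles with the run peaks as weights, the difference was -8.82 points (95% Wald interval -13.7 to -3.98). It was -7.08 points on 2L (-15.5 to 1.33), -9.82 points on 3L (-17.8 to -1.89) and -9.07 points on 3R (-17.6 to -0.582). With only runs of 4 or more it was -4.26 points, and its interval included 0 (-17.2 to 8.66), as it did in the 6 runs with spacings of at most 1000 bp (-6.79 points, -27.2 to 13.6). It was -5.03 points with spacings up to 3000 bp (-8.71 to -1.35) and -23.6 points in the 5 runs of ROW peaks of at least 4-fold (-46.1 to -1.06). With strength taken as −log10 q instead of fold enrichment it was -12.5 points (-17.4 to -7.72), closer to the difference over all peaks. Against runs of 2, averaged over fold quartiles, run peaks differed by -6.11 points (-11.5 to -0.686). They were lower in every quartile but the strongest, where the difference was 5.06 points (-15.1 to 22.6). Runs of 2 were themselves lower than lone peaks of like fold enrichment, by -5.47 points (-8.66 to -2.28). A lower share was thus not particular to tight runs.

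Run peaks were lower in every quartile of ROW peak width as well. Among the narrowest ROW peaks, those up to 417 bp, 18.9% of run peaks and 21.9% of outside peaks overlapped BEAF-32. The difference there was -3.00 points (-9.44 to 5.18). It was -8.97 points in the second quartile (-17.3 to 0.689) and -18.6 points in the third (-29.2 to -7.06). Among the widest, above 769 bp, 38.9% of 36 run peaks and 62.1% of outside peaks did, a difference of -23.2 points (-37.6 to -6.73). Averaged over the width quartiles, the difference was -10.5 points (-15.4 to -5.57). Whether it changes with width was not tested. With quartiles of fold enrichment and of width combined, a grouping added after seeing the data, the averaged difference was -7.10 points (-11.8 to -2.37). Counted per length, BEAF-32 summits inside ROW intervals numbered 505 per Mb of run peaks (92 summits in 0.182 Mb) and 671 per Mb of outside peaks (2125 summits in 3.17 Mb).

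**Figure D2:**
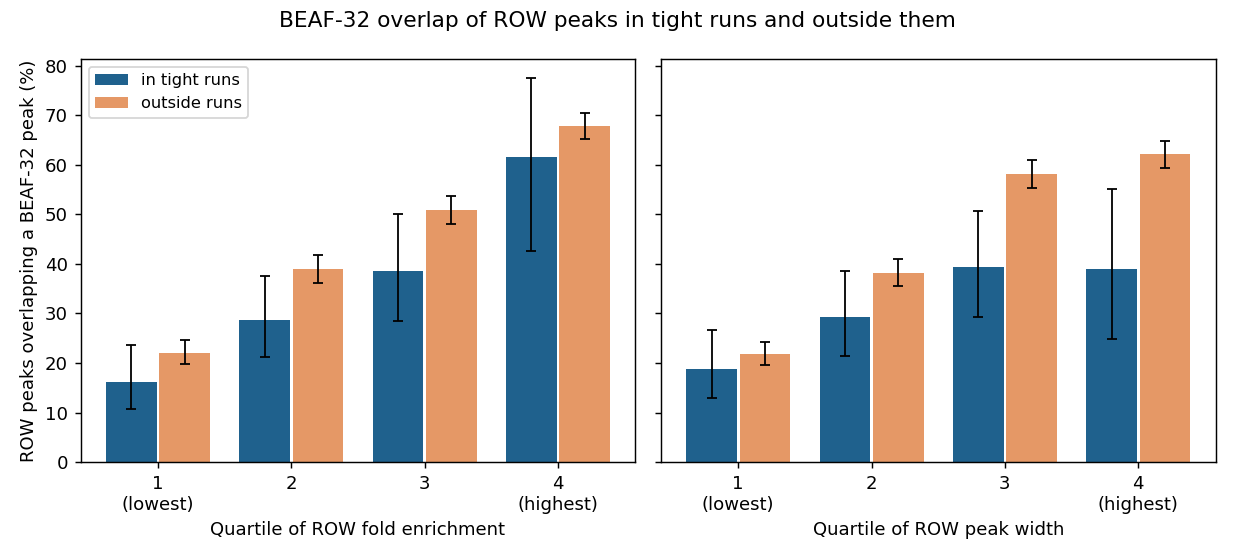
Share of ROW peaks that overlap a BEAF-32 peak, in percent, for peaks in tight runs (blue) and outside (orange), by quartile of ROW fold enrichment at the left and of ROW peak width at the right; bars are shares and lines 95% Wilson intervals. Run peaks are lower in every quartile, from 16.1% against 22.1% among the weakest to 61.5% against 67.9% among the strongest.

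The strongest peak of a run was more often a BEAF-32 site than its weaker neighbours. It overlapped BEAF-32 in 42 of 109 runs, 38.5% (29.9 to 47.9), against 56 of 231 weaker peaks, 24.2% (19.2 to 30.2). The difference was 14.3 points (95% Newcombe interval 3.85 to 24.95). It was 24.3 points on 2L (5.51 to 42.3), 3.71 points on 3L (-11.6 to 20.8) and 17.1 points on 3R (-1.80 to 36.0), so on 3L it was small, and on 3L and 3R its interval included 0. These intervals treat strongest and weaker peaks as separate groups, although they come from the same runs. Within runs, the strongest peak overlapped and the second did not in 26, the second overlapped and the strongest did not in 18, both did in 16 and neither did in 49. By rank, 31.2% of the second peaks and 16.5% of the third overlapped, and 4 of the 13 peaks of lower rank did. A similar step was present in runs of 2, with 46.3% of stronger and 31.1% of weaker peaks, a difference of 15.2 points (9.54 to 20.7). With summits at most 100 bp apart, 20.2% of strongest and 13.4% of weaker run peaks were shared, and the interval of the difference of 6.76 points included 0 (-1.40 to 16.1). In the 11 runs of 4 or more peaks the difference had the opposite sign, -4.16 points (-28.3 to 27.8), and so it had in the 5 runs made of ROW peaks of at least 4-fold, -10.0 points (-44.5 to 36.6).

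At like strength the step between strongest and weaker peaks was not seen. No weaker peak fell into the strongest quartile, which held 26 of the strongest peaks, 16 of them on BEAF-32. In the other quartiles 26 of 83 strongest peaks overlapped, 31.3%, against 24.2% of the weaker ones. In the weakest quartile 1 of 10 strongest and 19 of 114 weaker peaks overlapped. In the second quartile 24.1% of strongest and 30.2% of weaker peaks did, and in the third 40.9% and 35.5%. Averaged over these quartiles, strongest minus weaker was -0.0566 points, with a wide interval (95% Wald interval -13.7 to 13.6), so differences of either sign up to this size cannot be told from 0 here. Set against outside peaks of like strength, both kinds of run peak were lower, with a difference of -10.6 points for the strongest (-19.3 to -1.83) and of -7.98 points for the weaker ones (-13.7 to -2.31).

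Counted by run, at least 1 peak overlapped BEAF-32 in 71 of 109 runs, 65.1% (55.8 to 73.4). A run counts here if any of its 3 or more peaks overlaps. This share is therefore not comparable with the shares of single peaks, 28.8% in runs and 44.3% of all 5115. In 22 runs the strongest peak alone overlapped, in 20 the strongest and a weaker one, in 29 only weaker ones, and in 38 runs no peak did. Exactly 1 overlapping peak was found in 47 runs, 2 in 21 and 3 in 3. In the 98 runs of 3, where 28.6% of the 294 peaks overlapped, the counts of runs with 0, 1, 2 and 3 overlapping peaks were 36, 42, 18 and 2. Whether overlapping peaks were spread over runs otherwise than this share alone would give was not tested. In only 2 runs, both of 3 peaks, did every peak overlap. Where a single peak overlapped, it was the strongest in 22 runs, the second in 15, the third in 8 and the fourth in 2. In runs of 3, the middle peak overlapped in 30 of 98 (30.6%) and the end peaks in 54 of 196 (27.6%), a difference of 3.06 points (-7.53 to 14.4).

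The whole span of the run, gaps included, touched a BEAF-32 peak in 73 of 109 runs, 67.0% (57.7 to 75.1). Windows of 3216 bp, about the median length of a run, touched one in 69 of 109 cases when centred on runs, 63.3% (53.9 to 71.8), and in 50.2% (48.6 to 51.8) when centred on the 3643 lone ROW summits. The difference was 13.1 points (95% Newcombe interval 3.60 to 21.7). Windows of the same length on the peaks of runs of 2 touched a BEAF-32 peak in 61.9%. This comparison was added after seeing the data, and by definition a run has at least 3 ROW summits where a lone window has 1. Of the 101 BEAF-32 peaks that touched a run, 92 overlapped 1 ROW peak of it, 4 overlapped more than 1, and 5 lay between ROW peaks. Run peaks that did not overlap BEAF-32 had a BEAF-32 summit a median of 2651 bp away, against 7410.5 bp for such peaks outside. The outside peaks were not alike in this: the median was 3910.5 bp in runs of 2 and 8751 bp at lone peaks. A short distance was thus not particular to tight runs.

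**Figure D3:**
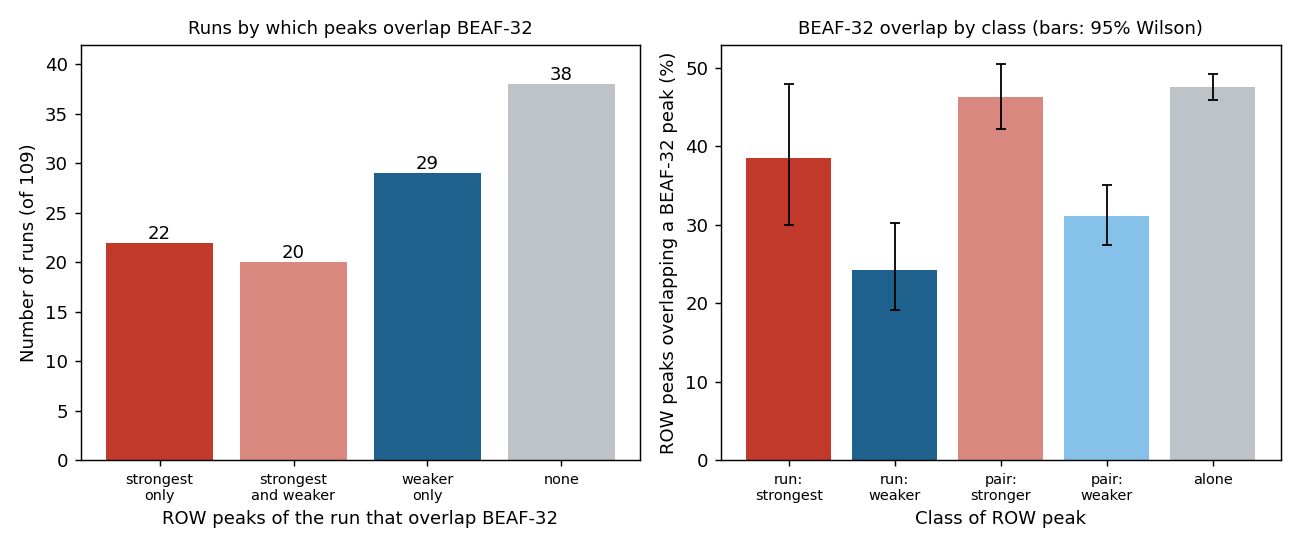
At the left, number of the 109 tight runs by which of their ROW peaks overlap a BEAF-32 peak; at the right, share of ROW peaks overlapping BEAF-32 in percent for the strongest and weaker peaks of runs, the stronger and weaker peaks of runs of 2 and lone peaks, with 95% Wilson intervals. The strongest run peaks are at 38.5% and the weaker ones at 24.2%, against 47.5% for lone peaks.

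Where a run peak did overlap BEAF-32, summit distance and BEAF-32 strength were close to those at other shared sites. The distance between the ROW and the BEAF-32 summit had a median of 92.5 bp in runs and 83 bp outside. The BEAF-32 fold enrichment there, on the scale of the BEAF-32 list, had a median of 7.38 in runs (interquartile range 3.50 to 16.5) and 8.80 outside (4.03 to 19.7). The strongest run peaks lay on BEAF-32 peaks of median 6.37-fold and the weaker ones on BEAF-32 peaks of median 9.64-fold, with interquartile ranges of 3.09 to 15.2 and 3.997 to 18.0 that overlap widely. Overlapping run peaks had a median ROW fold enrichment of 4.004 and the other run peaks one of 2.89. The same values outside were 6.25 and 3.31.

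The runs with the most peaks show how the peaks were arranged. The longest, on 3R from 15728945 to 15735130, had 5 ROW peaks of 5.90-, 2.60-, 6.35-, 2.13- and 2.29-fold in order of position. BEAF-32 peaks lay on the first (12.7-fold, summits 130 bp apart) and the second (4.04-fold, 182 bp), and the strongest ROW peak, the middle one, had none, with the nearest BEAF-32 summit 954 bp away. The other run of 5, on 3L from 14602681 to 14607124, had ROW peaks of 3.76-, 1.89-, 3.29-, 2.17- and 1.96-fold. It touched no BEAF-32 peak, and BEAF-32 came no closer than 18632 bp, measured from the summit of its last peak. These runs thus differed in BEAF-32 although they had the same number of peaks.

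The remaining runs named for their number of peaks, all of 4 and all on 3L, differed in which peaks were shared. The run from 16573053 to 16577476 had ROW peaks of 2.65-, 7.13-, 3.54- and 3.25-fold, and the first 3 lay on BEAF-32 peaks of 9.99-, 14.6- and 4.90-fold, with summits 102, 88 and 75 bp apart. Not far from it, the run from 16602196 to 16606372 had ROW peaks of 4.89-, 2.33-, 8.90- and 1.56-fold. There the strongest peak was 10 bp from a BEAF-32 summit and the 2.33-fold peak was 19 bp from another, while the 4.89-fold peak between these strengths had none. In the run from 18858653 to 18863505 the order was turned round. Its weakest peak, 2.67-fold, overlapped a BEAF-32 peak of 20.1-fold, though with summits 409 bp apart. The peaks of 5.59-, 5.01- and 5.55-fold overlapped none.

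**Figure D4:**
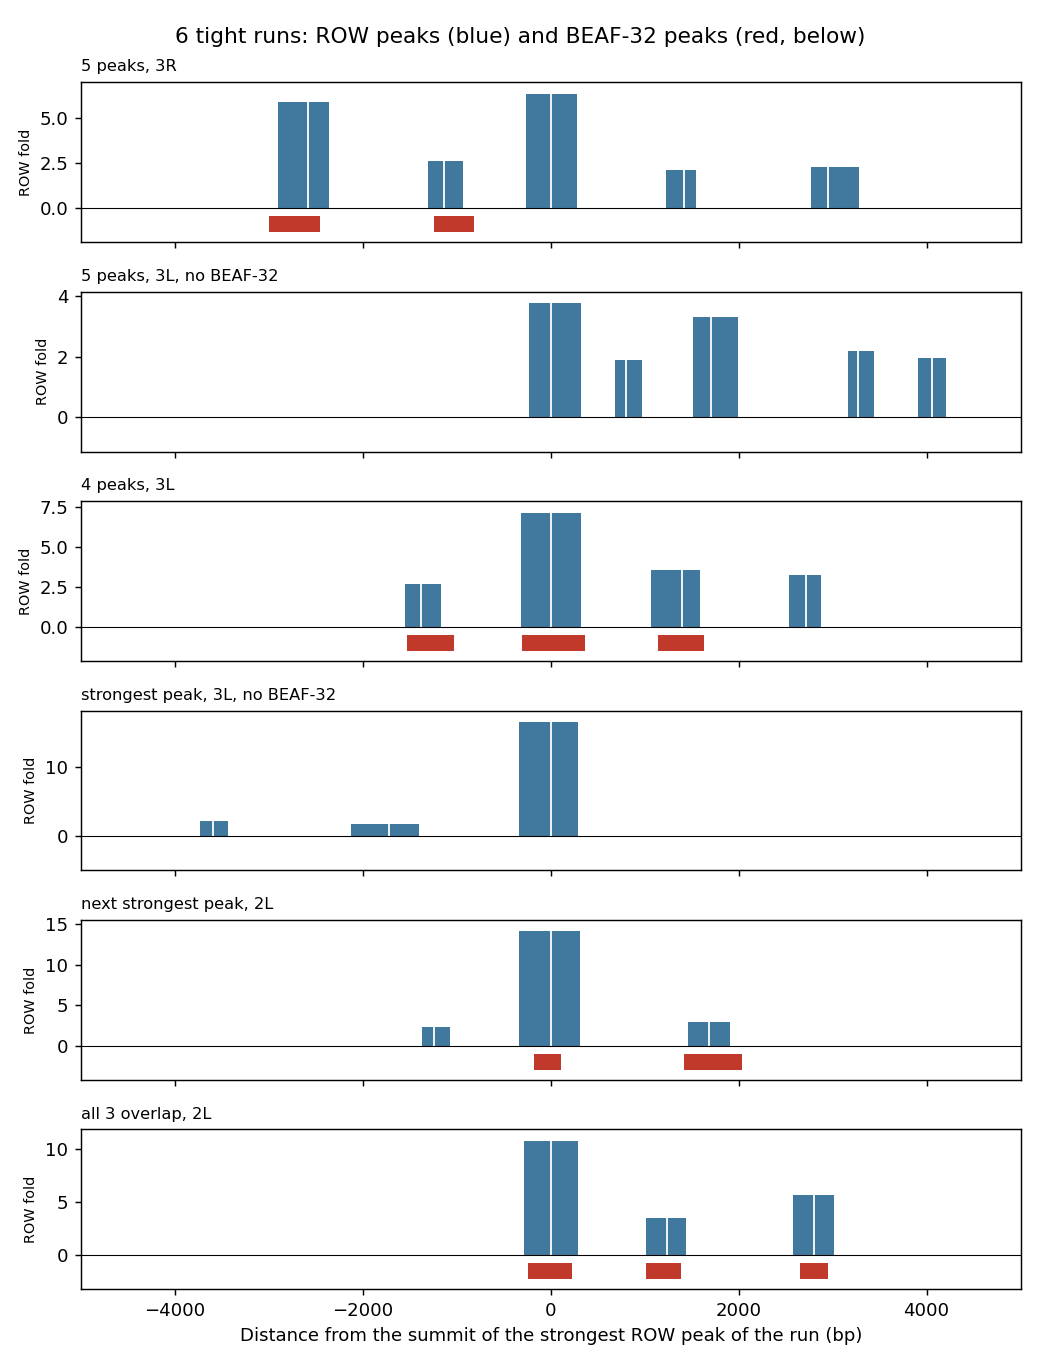
Maps of 6 tight runs on a shared axis of distance in bp from the summit of the strongest ROW peak; blue bars are ROW peaks drawn at their width with fold enrichment as height (linear axis from 0, scaled for each run) and a white line at the summit, and red bars below are BEAF-32 peaks at their width, with no strength shown. The runs have from 0 to 3 BEAF-32 peaks, and in the run of 5 on 3R the strongest ROW peak has none.

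The strongest peaks found in runs stood next to much weaker ones. The run on 3L from 8388645 to 8392675 held the strongest, 16.52-fold, beside peaks of 2.15- and 1.74-fold. This was also the largest ratio, 8.48, and no peak of it overlapped BEAF-32, whose nearest summit was 6015 bp away. The next, on 2L from 10986250 to 10989533, had a middle peak of 14.1-fold between peaks of 2.34- and 2.92-fold. The middle peak lay 24 bp from the summit of a weak BEAF-32 peak (1.94-fold). The 2.92-fold peak lay 71 bp from the summit of a strong one (26.9-fold), so in this run the order of strength differed between the lists. In 24 runs 2 or more ROW peaks overlapped BEAF-32. The strongest of these lay on the strongest BEAF-32 peak in at least 15 of the 24, with ties at a shared BEAF-32 peak given to the first by position. Whether this count departs from unrelated orders was not tested. On 3R from 1647061 to 1650740 a peak of 13.9-fold lay on a BEAF-32 peak of 29.4-fold, 105 bp between summits, and its neighbours of 1.86- and 2.39-fold had none.

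In the run on 2L from 520698 to 523109 the middle peak of 12.99-fold lay on a BEAF-32 peak of 2.30-fold, 208 bp between summits, and the neighbours of 2.71- and 2.58-fold overlapped none. In the run on 3R from 26161782 to 26164450 a single BEAF-32 peak of 1165 bp and 2.30-fold touched both the strongest ROW peak (12.7-fold) and the next one (2.75-fold, nearest BEAF-32 summit 1235 bp away). The second overlap is therefore one of edges and not of summits. The run on 3L from 22900254 to 22903518 came next by ratio, at 6.14, with a peak of 11.8-fold beside peaks of 2.002- and 1.85-fold. A BEAF-32 peak of 2.07-fold lay in a gap of this run and overlapped none of its ROW peaks.

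The 2 runs in which every peak overlapped BEAF-32 were of different strength. On 2L from 13366022 to 13369315, ROW peaks of 10.8-, 3.52- and 5.67-fold lay on BEAF-32 peaks of 6.75-, 2.84- and 3.22-fold, with summits 20, 83 and 32 bp apart. On 3L from 19797987 to 19800898, ROW peaks of 2.73-, 2.68- and 3.52-fold lay on BEAF-32 peaks of 13.2-, 4.93- and 4.87-fold, with summits 2, 199 and 57 bp apart. At the other end, the run of 4 on 3L from 23483514 to 23488221 had level peaks of 1.76-, 1.83-, 2.04- and 1.89-fold with −log10 q between 2.69 and 4.62, near the lower end of the list, and BEAF-32 had its closest summit 42418 bp away. These single runs have no replicate check.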

How the data were processed

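Chromatin immunoprecipitation with sequencing was done on S2 cells, on 3 samples for each antibody, and 1 peak list for each was deposited. Per the submitters' processing notes, Bowtie2, SAMtools, MACS2 and deepTools were used with the build dm3; versions, roles, the control library and any pooling are not given in the sources used here. The deposited lists hold 10 columns without a header. Column 7 was read as a linear ratio, the fold enrichment over local background, and column 9 of the deposited lists as the −log10 q-value of the summit. Column 8 was not used. Column 10 is the summit offset. The score in column 5 that the authors deposited was not used. The smallest −log10 q was 1.47 for ROW and 1.32 for BEAF-32.

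Runs were built from consecutive ROW summits at most 2000 bp apart on 2L, 3L and 3R. Overlap means at least 1 shared bp. Shares carry 95% Wilson intervals and differences Newcombe intervals. Differences at like strength were averaged over quartiles and carry 95% Wald intervals. The weights were the run peaks where all run peaks were compared. They were the strongest peaks for strongest minus weaker and strongest minus outside, and the weaker peaks for weaker minus outside. For runs of 2 against lone peaks they were the peaks of the runs of 2. All intervals cover counting error only. No test was run, because the lists carry no value per sample and neighbouring peaks are not replicates. Depth is unknown. The members, the comparisons and the rule for named runs were chosen with earlier results of these data known. The rule names the 5 runs with the most peaks, the 5 with the strongest peaks, the 3 with the most peaks on BEAF-32, the 3 with the most peaks and none on BEAF-32, and the 3 with the largest ratio of strongest to weaker peaks, 14 different runs in all. Ties in the number of peaks were settled by the larger summed fold enrichment. Alternatives changed the spacing, the run length, the thresholds, the overlap definition, the measure of strength and the arms. The run and overlap steps were tried on simulated data in which BEAF-32 peaks were copies of ROW peaks. Partial overlaps and spacings just above 2000 bp were not tried there. Python 3.11.15, numpy 2.4.6, pandas 2.3.3, scipy 1.17.1 and matplotlib 3.10.9 were used. The planned count of the CGATA motif and the distances to start sites need a dm3 genome and annotation and were not run, so runs are given by position.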

Additional observations from a re-analysis of the deposited data

Results flagged for a closer look

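Tight runs of ROW peaks also lay on sequences left out of the comparisons, and these were picked out as signal outside the main measurement. The labels name no control group in which to count them. On the X, 112 of 1346 ROW peaks (8.32%) were in 36 runs, with a median fold enrichment of 3.43 in runs and 4.80 outside. There 32 of 112 run peaks, 28.6% (95% Wilson interval 21.0 to 37.5), overlapped BEAF-32, against 42.9% (40.1 to 45.6) of outside peaks, values close to those on 2L, 3L and 3R. On chromosome 4 there was a single run of 4 peaks among 137, and 2 of its peaks overlapped BEAF-32. The assembled heterochromatin pieces held 24 run peaks of 316 in 8 runs, with a median of 2.03-fold in runs and 2.29-fold outside, and overlaps of 29.2% (14.9 to 49.2) in runs and 28.8% (23.9 to 34.2) outside. The unplaced scaffolds U and Uextra held 19 run peaks of 330 in 6 runs, with overlaps of 31.6% (15.4 to 54.0) in runs and 37.0% (31.8 to 42.5) outside. On these last sequences the intervals are too wide to compare run and outside peaks.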

How the results depend on the processing

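No paired analysis was possible because the 3 samples of an antibody share 1 list, which also means that no sample could be left out. The lower BEAF-32 share of run peaks kept its sign in all 12 recalculations (-32.1 to -10.9 points) and at like ROW strength in all 14 (-23.6 to -4.26 points). Its interval included 0 only with a spacing of at most 1000 bp and with runs of 4 or more, in both comparisons. The tallies include settings with few runs. The -32.1 and -23.6 points came from the setting with 5 runs and the -4.26 points from the setting with 11 runs. All settings draw on the same lists, so they are not independent repeats. The higher share of the strongest peaks kept its sign in 9 of 11, and its interval excluded 0 in 6. These tallies of intervals count each peak as independent, so they are not tests, and wider intervals could change them. Of 114 recalculations of 10 results, 74 stayed within the main interval (counts within 1.5 times the main count), 38 moved further and 2 changed sign. Several could not differ, since the definition of overlap does not alter the runs. The measure of strength alters neither the runs nor their overlaps, so among the 12 that setting only repeats the main -16.6 points. The 4 added after seeing the data all stayed within the main interval.

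The number of runs depended on the definition. A spacing of 1000 bp gave 18 peaks in 6 runs, 1500 bp gave 167 in 55 and 3000 bp gave 713 in 217. Runs of at least 4 held 46 peaks in 11 runs, and runs of at least 2 held 1472 in 675. A −log10 q of at least 10 in both lists left 185 peaks in 60 runs, and a floor of 4-fold left 15 in 5. With X added there were 452 peaks in 145 runs. The floors on q and fold leave fewer peaks to search, while the spacings and run lengths apply other limits to the same 5115 peaks.

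At 1000 bp, 50% of strongest and 16.7% of weaker peaks overlapped BEAF-32 (33.3 points), 50% of runs had an overlap, and the median log2 ratio of strongest to weaker was 0.52, against 0.85 in the main setting. At 3000 bp, 34.5% of run peaks and 30.4% of weaker peaks overlapped. In runs of at least 4, 27.3% of strongest and 31.4% of weaker peaks did (-4.16 points, the sign reversed), with an overlap in 81.8% of runs and a log2 ratio of 1.07. In runs of at least 2, 36.4% of peaks overlapped, -11.1 points against outside peaks. With the 4-fold floor, 20.0% of strongest peaks overlapped, strongest minus weaker reversed to -10.0 points, run minus outside was -32.1 and -23.6 points at like strength, and the log2 ratio was 0.23. With summits at most 100 bp apart, the shares were 15.6% of run peaks (-10.9 points against outside), 20.2% of strongest, 13.4% of weaker peaks and 39.4% of runs. With at least 50% of both intervals shared, they were 23.8% of run peaks and 55.0% of runs. The cause of these changes was not tested. The settings with 5, 6 or 11 runs have too few peaks to bear a direction.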

Other observations

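The share of ROW peaks in runs was also read along the arms. With each arm divided into 4 equal stretches between its first and last ROW summit, in order of coordinate, it was 8.33%, 7.13%, 3.68% and 7.56% on 2L, from 10, 11, 4 and 10 runs. On 3L it was 6.24%, 5.37%, 12.1% and 7.29%, from 10, 7, 14 and 10 runs. On 3R it was 4.53%, 5.47%, 3.75% and 9.57%, from 7, 8, 6 and 12 runs. This division was chosen after the runs were known. Whether the runs depart from an even spread was not tested, and the counts are small. The stretches hold between 326 and 533 ROW peaks each.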
